A study of Arabidopsis thaliana with 6 samples.

Results

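The loci described here are 166 of the 33602 loci in a table of nuclear RNA levels from the F1 endosperm of Arabidopsis thaliana. They were chosen as very low in 1 direction of a cross and higher in the other. A locus was taken when its lowest value over the 3 libraries with a Landsberg erecta (Ler) mother was at least 5 RPKM and its highest value over the 3 libraries with a Columbia mother was below 1 RPKM. RPKM is a read number scaled to the length of the locus and the read total of the library. The members were therefore chosen on the difference between the crosses itself, and that difference is described below without a test. The rule took 0.494% of all loci. With the crosses exchanged it took 3 loci, or 0.00893%.

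The study made nuclear RNA libraries from endosperm 4 days after pollination, with nuclei purified by INTACT, which pulls down nuclei whose envelope carries a tag. One parent, written Cm, was TEmob, an INTACT-tagged line in the Columbia-0 background. Per the labels' protocols it descends from seeds treated with α-amanitin and 40 µM zebularine, an inhibitor of DNA methylation, and held at 37 °C. Haploid plants were then obtained by crossing to CENH3-tailswap, and colchicine doubled their chromosomes. The other parent, written L, was Ler, and where Ler was the mother the plants carried pi-1, a floral mutation that removes stamens. Cm x L had the TEmob mother and the Ler father, and L x Cm had the Ler pi-1 mother and the TEmob father, with 3 libraries each. TEmob is 1 line, it entered every library, and the labels do not name the promoter that drives the tag. Endosperm receives more maternal than paternal genome copies, so the crosses differ in accession dosage, in which parent brought the tag, in the pi-1 mutation and in the maternal tissue around the nuclei. These cannot be told apart. In tissue libraries of this kind fewer nuclei of a type and less RNA per nucleus cannot be told apart either.

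Endosperm is the seed tissue that feeds the embryo. In Arabidopsis it first forms a syncytium of freely dividing nuclei around the embryo, and it lies inside a seed coat made entirely by the mother. Many of its genes are expressed mainly from the copies inherited from one parent, which is why reciprocal crosses are used to study it. Among the members are factors that pattern organs, veins and stomata, enzymes that build and loosen cell walls, uptake transporters, and transfer RNAs (tRNAs), the short adaptors that read codons during translation.

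The name "detected only with a Ler mother" holds by the limits of the rule and not in the strict sense. Of the 166 members, 159 had a value above 0 in at least 1 Cm x L library. The other 7 were listed at 0 in all 3 Cm x L libraries, and they were 5 tRNA loci, the dehydrin LEA (AT2G21490) and a defensin-like gene (AT3G63360). Dehydrins are hydrophilic proteins that build up when cells dry. LEA stood at 7.61, 5.401 and 7.50 RPKM in L x Cm replicates 1 to 3, and AT3G63360 at 5.98, 6.07 and 6.40 RPKM. At the depth of the libraries 3 reads in 1 library, the limit that a count of 0 allows, equal 0.123 to 0.162 RPKM for LEA and 0.398 to 0.525 RPKM for AT3G63360, at the shortest length that turns their values into whole reads. For the 3 of these tRNA loci whose annotated length gives whole reads, 3 reads equal 1.39 to 1.86 RPKM, above the limit of 1 RPKM in the rule, so for loci this short the depth cannot show a level below that limit. These bounds cover counting error only.

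**Figure D1:**
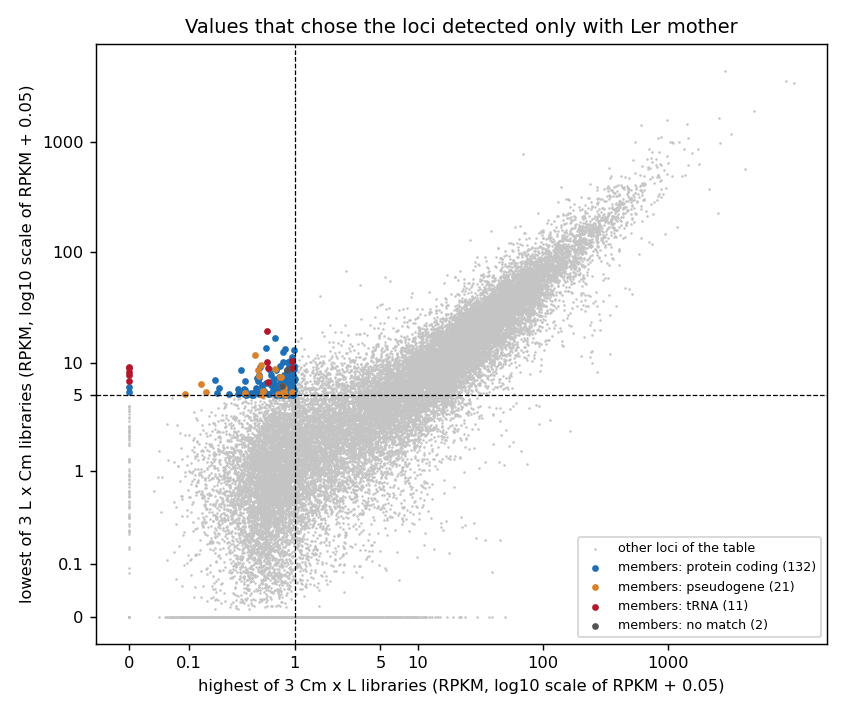
Each point is a locus; the horizontal axis is its highest value over the 3 Cm x L libraries and the vertical axis its lowest value over the 3 L x Cm libraries, both in RPKM on a log10 scale of RPKM + 0.05. The dashed lines are the limits of the rule at 1 and 5 RPKM; the 166 members fill the upper left corner because the rule placed them there, and most lie close to its edges.

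The tRNA members carry the highest values and are short enough for their sequences to be given whole. They are shown because 3 of the 5 highest mean levels in L x Cm belonged to tRNA loci and because each sequence has identical copies elsewhere in the genome, most of which did not meet the rule. The sequences are those of the RefSeq annotation of TAIR10.1 on the coding strand, 5′ to 3′, with the anticodon in capitals. AT1G01870, on chromosome 1, plus strand, is a tRNA for valine. AT1G03640, on chromosome 1, minus strand, is a tRNA for phenylalanine. AT1G54670, on chromosome 1, minus strand, is a tRNA for alanine. AT4G34695, on chromosome 4, plus strand, is a tRNA for glutamate, and AT1G29210, on chromosome 1, minus strand, has the identical sequence.
AT1G01870: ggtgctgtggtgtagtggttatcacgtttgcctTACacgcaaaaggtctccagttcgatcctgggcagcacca
AT1G03640: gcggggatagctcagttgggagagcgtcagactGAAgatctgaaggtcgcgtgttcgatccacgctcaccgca
AT1G54670: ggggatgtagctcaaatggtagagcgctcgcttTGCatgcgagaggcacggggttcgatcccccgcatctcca
AT4G34695: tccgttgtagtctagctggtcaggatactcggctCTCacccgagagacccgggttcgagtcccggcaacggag

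Levels of the members were very low in Cm x L and moderate in L x Cm, within the bounds that the rule set. The mean over the 3 L x Cm libraries ran from 5.31 to 26.1 RPKM with a median of 8.65. It reached 10 RPKM in 57 members, 15 RPKM in 12 and 20 RPKM in 4. In L x Cm replicates 1, 2 and 3 the median member stood at 10.7, 7.71 and 6.56 RPKM, which was percentile 59.5, 54.8 and 53.4 among all loci of the same library. In Cm x L replicates 1, 2 and 3 the median member stood at 0.347, 0.640 and 0 RPKM, which was percentile 30.4, 20.3 and 15.01. With a Ler mother the median member thus lay just above the middle of the range. The limit of 5 RPKM bounds this from below. The lowest member stood at percentile 40.9, 45.96 and 48.5 in L x Cm replicates 1 to 3, and the highest at 84.97, 86.5 and 75.5.

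The libraries of one cross did not behave alike for the members. L x Cm replicate 1 was the highest of its cross for 129 members and replicate 3 the lowest for 96. Within L x Cm the highest library exceeded the lowest by a median factor of 1.75, by under 2 in 121 members and by over 3 in 8. Among the Cm x L libraries replicate 3 was at 0 for 108 members, replicate 1 for 21 and replicate 2 for 8, and replicate 2 was the highest for 116. The same order is seen over the whole table. Cm x L replicates 1, 2 and 3 had 5036, 1005 and 10084 loci at 0, and L x Cm replicates had 1270, 2137 and 3636. The median locus of the table stood at 3.45, 4.56 and 3.35 RPKM in Cm x L and at 7.38, 6.08 and 5.42 RPKM in L x Cm, so a locus of low level was higher in L x Cm before any choice of members. The part of this difference in low levels in the count of members was not tested; when the libraries were given the same distribution by quantile normalization, 21 of the 166 still met the rule, and the loci that met it with the crosses exchanged rose from 3 to 12. Without L x Cm replicate 3 the limits would take 432 loci, without Cm x L replicate 2 they would take 379, and without L x Cm replicate 2 they would take 274. Leaving out a library can only add loci, since the limits bind the lowest and the highest library.

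**Figure D2:**
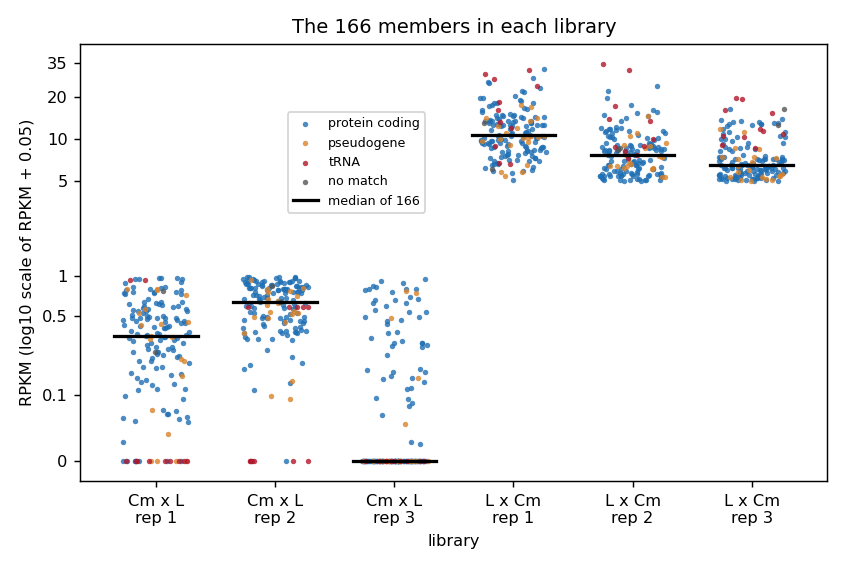
Points are the 166 members in each of the 6 libraries, coloured by class, in RPKM on a log10 scale of RPKM + 0.05, and black bars are the medians of the 166. The empty band between 1 and 5 RPKM is made by the rule; the median falls from 10.7 to 6.56 RPKM over the L x Cm libraries, and 108 members lie at 0 in Cm x L replicate 3.

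The limits cut through a continuum of loci. Of the 9469 loci below 1 RPKM in every Cm x L library, the lowest L x Cm library had a median of 0.356 RPKM and a 99th percentile of 5.75 RPKM. It reached 1 RPKM in 2643 of them, 3 RPKM in 569, 5 RPKM in the 166 members, 10 RPKM in 13 and 15 RPKM in 2. Of the 3023 loci below 1 RPKM in every L x Cm library, the lowest Cm x L library reached 1 RPKM in 21, 3 RPKM in 4 and 10 RPKM in 1. In the deposited RPKM the side of the Ler mother thus held more loci at each of these limits, and after quantile normalization the counts at 5 RPKM were 21 and 12. Members sat near the edges: 78 had their lowest L x Cm value below 6 RPKM and 70 had their highest Cm x L value at 0.8 RPKM or more.

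Just inside the lower limit were the pseudogene AT3G45253 with 5.005 RPKM in its lowest L x Cm library, the copper transporter COPT3 with 5.01 and AT3G60270 with 5.02. Just outside it were AT5G26345 with 4.996, AT1G54660 with 4.98 and the cytochrome P450 CYP96A3 with 4.96. On the other limit the acid phosphatase PAP21 had 0.995 RPKM in its highest Cm x L library, the pectin lyase-like AT3G24130 had 0.990 and AT4G39360 had 0.988. Just beyond it lay the cytochrome P450 CYP81D3 with 1.006, AT1G36610 with 1.01 and TCP1, a TCP transcription factor, with 1.01. The loci on either side of each limit therefore differ by less than 0.1 RPKM.

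By class the members followed the table in one respect and departed from it in another. Protein-coding genes made up 132 of the 166, or 79.5%, the same share as in the whole table. Pseudogenes, the class under which this annotation also files transposon genes, made up 21, or 12.7%, against 14.4% of the table. tRNA loci made up 11, or 6.63%, against 1.85% of the table. The remaining 2 members had no match in the annotation, and no member was a small nuclear, small nucleolar or other RNA gene. Set against the 9469 loci below 1 RPKM in every Cm x L library, the members were 2.72% of the protein-coding genes, 0.581% of the pseudogenes and 3.58% of the tRNA loci found there. In that pool pseudogenes were 38.2% of the loci, so a pseudogene below 1 RPKM in Cm x L seldom reached 5 RPKM in L x Cm.

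Among the 11 tRNA members, 9 gave whole numbers of reads in all 6 libraries, which allows their data to be read as counts. These 9 had 0 to 2 reads in any Cm x L library and 13 to 62 reads in any L x Cm library. AT1G54670, the alanine tRNA, had 0, 1 and 0 reads in Cm x L and 48, 55 and 30 reads in L x Cm, or 24.2, 34.7 and 19.4 RPKM, the highest mean among the members. AT1G01870, the valine tRNA, had no read in Cm x L and 54, 50 and 14 reads in L x Cm, or 27.2, 31.6 and 9.04 RPKM. AT1G03640, the phenylalanine tRNA, had no read in Cm x L and 62, 13 and 24 reads in L x Cm. The high RPKM values of these short loci thus rest on few reads, and the libraries of one cross differed among themselves, with 62 against 13 reads in AT1G03640.

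The glutamate pair shows how a single sequence is divided among loci. AT4G34695 had 0, 1 and 0 reads in Cm x L and 58, 16 and 25 reads in L x Cm, while the identical AT1G29210 had 2, 1 and 0 reads and 24, 22 and 16 reads. Since the sequences are identical, reads within them cannot be told apart, and no source used here says how the authors placed reads that match several loci. The level of a single tRNA locus is uncertain for that reason. Of the 623 tRNA loci 500, or 80.3%, have an identical copy among the others.

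Identical copies of the first 3 printed sequences, which were printed for their high means, were lower than the members. The valine tRNA AT1G01870 had 4 copies whose mean level in L x Cm lay between 1.27 and 8.78 RPKM, the phenylalanine tRNA AT1G03640 had 14 copies between 0 and 7.52 RPKM, and the alanine tRNA AT1G54670 had 8 copies between 0 and 5.89 RPKM. None of these copies reached 5 RPKM in all 3 L x Cm libraries. All 8 copies of the alanine tRNA were below 1 RPKM in every Cm x L library, as the member was. The other tRNA members read methionine, valine, aspartate, proline and alanine codons. The methionine pair, AT3G07055 with 18.4, 7.68 and 19.6 RPKM and AT1G22320 with 6.77, 7.28 and 8.69 RPKM in L x Cm, was at 0 in Cm x L. Over the whole class the tRNA loci together held 1366, 1762 and 797 reads in Cm x L and 5726, 3277 and 2875 reads in L x Cm. All tRNA loci together were thus higher in each L x Cm library than in any Cm x L library, members or not. The libraries were made from poly(A)-selected RNA, per the labels' protocols, and mature tRNAs carry no poly(A) tail.

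Repeated sequence was otherwise rare. Of the 164 members the annotation places, 118 had no stretch of 50 bases that occurs elsewhere in the genome and 141 had under 10% of such stretches. The share was at least 50% in 14. These were the 11 tRNA loci, the uncharacterized gene AT1G25180, the small heat shock protein-like gene AT4G16560 and the pseudogene AT5G34358. Lower shares were 40% in EXT6, 36.2% in AT4G16215 and 21.3% in AT1G28455, which are described below. Member AT5G05282, which has no match in the annotation, had the same value as the RING/U-box gene AT5G05280 in all 6 libraries: 0.253, 0.853 and 0 RPKM in Cm x L, and 13.0, 8.58 and 12.7 RPKM in L x Cm. The pair counts as 2 members and holds 1 measurement. Members were shorter than the table, with a median exon length of 1224 bases against 1580 among protein-coding genes.

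Among protein-coding members the highest mean belonged to AT4G16215, a gene of unknown product. It had 0.644, 0.684 and 0 RPKM in Cm x L and 25.8, 24.3 and 16.6 RPKM in L x Cm, a mean of 22.2 ± 4.92 (SD, n = 3). AT4G33420 encodes a peroxidase of a superfamily whose secreted members cross-link cell wall polymers, and had 0.600, 0.886 and 0 RPKM against 31.8, 22.3 and 9.34. Its L x Cm mean of 21.2 ± 11.3 RPKM (SD, n = 3) rests on replicates that differ more than 3 times. AT3G01311, annotated as a putative actin cross-linking protein, had 25.2, 15.4 and 13.4 RPKM in L x Cm. AT5G24220, a lipase class 3-related gene, had 18.1, 17.7 and 13.1 RPKM, and was steadier across replicates. CYP710A1 encodes the cytochrome P450 that desaturates plant sterols in the side chain, turning sitosterol into stigmasterol. It had 0.479, 0.924 and 0 RPKM in Cm x L and 22.3, 11.9 and 8.85 RPKM in L x Cm, a mean of 14.3 ± 7.07 (SD, n = 3). EDA32, annotated as a putative endonuclease or glycosyl hydrolase, had 21.8, 9.36 and 10.9 RPKM in L x Cm, and its Cm x L replicates of 0.974, 0.986 and 0 RPKM lie just under the limit.

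Transcription factors and other regulators of development were the largest group by product, with 22 members. This group and those for hormones, cell walls and transport were drawn up from product names after the values had been seen. Their sizes carry no test, and no share over all loci was made for them. A narrower set, products with words for transcription factors in their annotation, held 8 of the 132 protein-coding members, or 6.06%. That share was 4.49% of all protein-coding genes and 5.03% of those below 1 RPKM in every Cm x L library. Mean levels of the 22 in L x Cm ran from 6.06 to 13.9 RPKM with a median of 8.75, close to the 8.62 of all protein-coding members. In 12 of the 22 Cm x L replicate 3 was at 0, and in 18 L x Cm replicate 1 was the highest. Among all 132 protein-coding members these counts were 79 and 107.

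Several of these regulators are known for the vascular tissue that carries water and sugars. HCA2, a Dof factor that promotes divisions in the vascular cambium, was the highest of the group with 0.351, 0.489 and 0.666 RPKM in Cm x L and 20.3, 14.9 and 6.56 RPKM in L x Cm. VND7, the NAC factor able to switch cells into xylem vessels, had 0.791, 0.327 and 0.850 RPKM and 10.4, 5.68 and 9.73 RPKM. HB-8, a class III HD-ZIP factor of the procambium, had 0.622, 0.842 and 0.956 RPKM and 7.75, 5.90 and 5.21 RPKM. Unlike most members, these 3 genes had reads in every Cm x L library. LAC11, a laccase that polymerises lignin in the same vessels, had 0.300, 0.482 and 0 RPKM and 12.7, 7.97 and 6.72 RPKM.

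Other members were factors of organ boundaries, leaf shape or stomata, or belonged to a family named after boundaries. Boundary genes outside the members are given with the marker lists below, and CUC1 among them was higher in Cm x L. CUC3, the NAC factor that keeps neighbouring organs separate, had 0.403, 0.730 and 0 RPKM in Cm x L and 18.2, 8.14 and 7.43 RPKM in L x Cm, a mean of 11.2 ± 6.01 (SD, n = 3). Replicate 1 was more than double the others. DPA4, a B3 family factor that limits the depth of leaf teeth, had 12.7, 9.32 and 6.23 RPKM in L x Cm. The LOB domain gene AT5G15060, of the family named after lateral organ boundaries, had 12.4, 7.04 and 7.05 RPKM. SPCH, the basic helix-loop-helix factor that starts the stomatal lineage, had 0.156, 0.813 and 0 RPKM in Cm x L and 8.76, 11.2 and 7.23 RPKM in L x Cm.

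Regulators of flowers and of the gynoecium, the female organ of the flower, were present too. AGL24, a MADS-box factor that promotes flowering and the identity of the inflorescence, had 0.0975, 0.322 and 0 RPKM in Cm x L and 14.6, 6.48 and 5.69 RPKM in L x Cm. HEC2, needed with its relatives for the tissue that guides pollen tubes, had 8.99, 6.995 and 5.401 RPKM in L x Cm. STY1 and STY2, partners in shaping the style, had 9.31, 5.58 and 6.12 RPKM and 8.10, 5.60 and 5.11 RPKM. In each of these 4 genes L x Cm replicate 1 was the highest of its cross, as in 107 of the 132 protein-coding members.

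Factors of stress and nutrition completed the group. ERF71, an ethylene response factor induced by low oxygen, had 0.500, 0.372 and 0 RPKM in Cm x L and 13.6, 9.16 and 12.9 RPKM in L x Cm. ESE2, another member of the AP2/ERF family, had 14.97, 16.1 and 6.26 RPKM in L x Cm. HRS1, which links phosphate and nitrate signals in roots, had 7.37, 8.38 and 6.48 RPKM, and MYB59 had 9.42, 9.11 and 7.48 RPKM. The last pair varied less among replicates than most of the group.

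**Figure D3:**
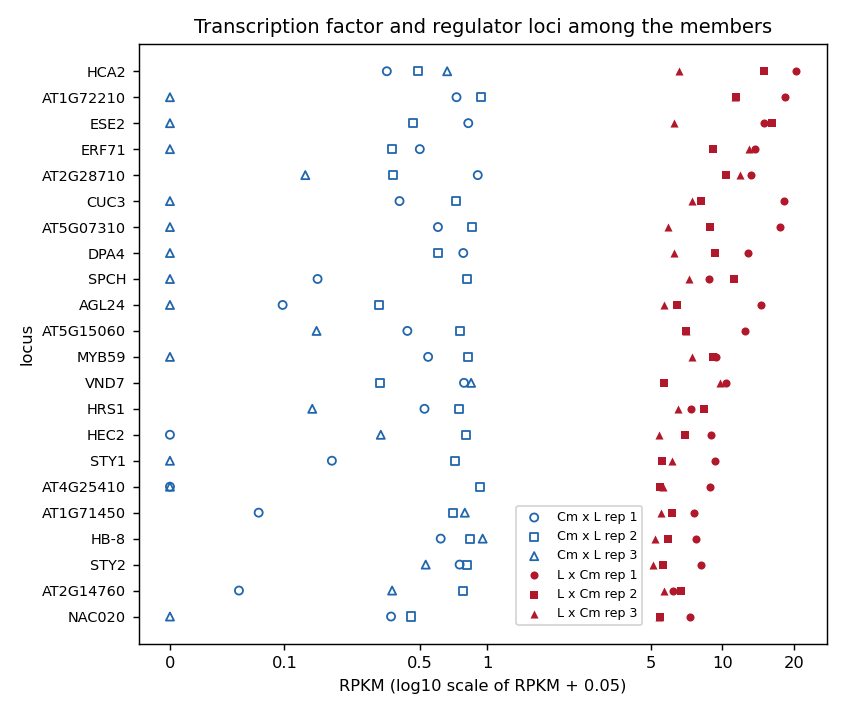
Each row is a member with a regulatory product, ordered by mean level in L x Cm; open blue symbols are the 3 Cm x L libraries and filled red symbols the 3 L x Cm libraries, in RPKM on a log10 scale of RPKM + 0.05. The gap between 1 and 5 RPKM is set by the rule; HCA2 and CUC3 reach 20.3 and 18.2 RPKM in L x Cm replicate 1, while the lower rows sit near 5 RPKM in replicate 3.

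Hormone genes were few, and 1 of them was the highest member with a symbol. RR20, a response regulator of cytokinin signalling that acts as a transcription factor, had 0.505, 0.791 and 0 RPKM in Cm x L and 19.2, 19.8 and 12.4 RPKM in L x Cm, a mean of 17.1 ± 4.11 (SD, n = 3). YUC1, a flavin monooxygenase that makes auxin, had 0.769, 0.477 and 0 RPKM and 7.98, 5.18 and 6.36 RPKM. IAA5, an Aux/IAA repressor of the auxin response, had the lowest mean of all members: 0.436, 0.810 and 0.791 RPKM against 5.68, 5.21 and 5.03 RPKM. MES1, a methyl esterase that can release hormones from their methyl esters, had 5.93, 5.57 and 5.60 RPKM in L x Cm. Values of IAA5 and MES1 were tight among replicates but close to the limit.

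Cell wall genes numbered 19, with mean levels in L x Cm from 6.75 to 21.2 RPKM and a median of 9.20. They included peroxidases, laccases, pectin lyase-like proteins, extensins, proline-rich proteins and genes annotated to the plant invertase/pectin methylesterase inhibitor superfamily. AT5G11990, a proline-rich protein, had 0.251, 0.621 and 0 RPKM in Cm x L and 23.4, 7.68 and 14.1 RPKM in L x Cm. The extensin EXT6, a structural wall protein, had 9.21, 5.21 and 9.18 RPKM, and sks9, a relative of the multicopper oxidase-like SKU5, had 15.03, 6.09 and 5.15 RPKM in L x Cm. In 17 of the 19 L x Cm replicate 1 was the highest library of its cross, as it was in 107 of the 132 protein-coding members.

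Of the 9 transport genes several are best known from roots. FRO2, the reductase that frees iron from chelates at the root surface, had 0.341, 0.687 and 0.0187 RPKM in Cm x L and 14.7, 5.05 and 6.38 RPKM in L x Cm. AMT1;2, an ammonium transporter of the root, had 0.202, 0.912 and 0 RPKM and 11.1, 8.76 and 6.18 RPKM. STP6, a sugar and proton symporter described from pollen, had 0.0449, 0.362 and 0.0889 RPKM and 14.4, 5.68 and 5.75 RPKM. PUP15, a purine permease, had 12.3, 7.32 and 6.25 RPKM in L x Cm. UMAMIT43-psi, annotated as an EamA-like transporter, had 0.211, 0.131 and 0 RPKM in Cm x L and 11.7, 12.1 and 5.89 RPKM in L x Cm. It was among the 21 members that also met the limits after quantile normalization, as were SPCH, AGL24 and the cell wall gene AT2G47540. The other genes of the regulator, hormone, cell wall and transport groups did not, HCA2, CUC3, RR20 and FRO2 among them. Those 21 were 9 protein-coding genes, 7 tRNA loci and 5 pseudogenes.

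Other members with a symbol had no shared theme. BIP3, an inducible chaperone of the endoplasmic reticulum, varied little, with 8.20, 9.01 and 8.69 RPKM in L x Cm. CLL1, an allergen-like protein, had 11.0, 8.33 and 13.5 RPKM. The carbonic anhydrase ACA8, the prenyltransferase cPT6 and the dehydrogenase-like SDR4 had 16.6, 7.57 and 6.58 RPKM, 13.4, 12.0 and 9.32 RPKM, and 9.94, 11.1 and 7.18 RPKM. PAP21 had 14.4, 7.02 and 7.19 RPKM in L x Cm beside its 0.995 RPKM in Cm x L replicate 2.

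Among the pseudogenes AT1G28455, AT2G06860 and AT1G21525 had the highest means. AT1G28455 had 0, 0.450 and 0 RPKM in Cm x L and 14.1, 14.7 and 11.8 RPKM in L x Cm. It was the 1 member that still qualified under each of 4 other settings: below 0.5 RPKM in Cm x L, at least 10 RPKM in L x Cm, quantile normalization, and rescaling by size factors. AT2G06860 had 0.449, 0.512 and 0.481 RPKM and 16.9, 9.44 and 11.2 RPKM, and AT1G21525 had 0.425, 0.678 and 0 RPKM and 14.3, 11.0 and 8.71 RPKM. AT3G30820, annotated as protein coding with a retrotransposon ORF-1 product, had 0.618, 0.383 and 0 RPKM and 27.7, 8.89 and 8.55 RPKM, so its mean rests largely on replicate 1. AT2G31218, without a match, went the other way among replicates with 6.13, 8.38 and 16.4 RPKM in L x Cm.

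The members were spread over all 5 nuclear chromosomes in about the proportion of the table. Chromosomes 1 to 5 held 39, 30, 32, 23 and 40 of the 164 placed members. These are 23.8%, 18.3%, 19.5%, 14.02% and 24.4%, against 25.4%, 16.6%, 20.1%, 15.4% and 22.5% of all placed loci. Positions are given as gene order, because the build named by the submitters and that of the annotation used here differ in name. Members with at most 5 loci between them were joined into runs. There were 7 runs, holding 17 members, and 2 of them held 3 members or more.

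**Figure D4:**
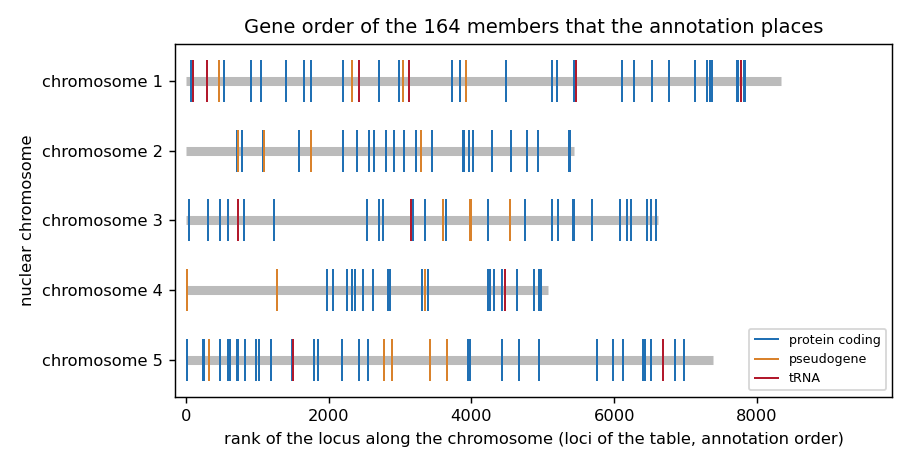
Each coloured tick is 1 of the 164 placed members, drawn at its rank along the annotated loci of its chromosome; grey bars are the 5 nuclear chromosomes, whose lengths are their numbers of loci in the table. The members, 39, 30, 32, 23 and 40 on chromosomes 1 to 5, are scattered along each bar, with few close groups.

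The longest run, on chromosome 2, joined ERF71, AT2G47540, AT2G47550 and AT2G47560. AT2G47540, a protein of the pollen Ole e 1 allergen and extensin family, had 0, 0.194 and 0 RPKM in Cm x L and 11.9, 6.94 and 8.76 RPKM in L x Cm. AT2G47550, annotated to the plant invertase/pectin methylesterase inhibitor superfamily, had 14.1, 7.75 and 5.84 RPKM in L x Cm. AT2G47560, a RING/U-box protein, had 13.0, 5.10 and 7.36 RPKM in the same libraries. AT2G47530, which lies inside the run and belongs to the same family as AT2G47540, missed the rule through a single library with 14.3, 12.0 and 3.08 RPKM in L x Cm. The run was bordered on one side by FUM1, a fumarase of the citric acid cycle, which had 49.4, 50.6 and 71.7 RPKM in Cm x L and 52.9, 58.2 and 52.2 RPKM in L x Cm, overlapping between the crosses. On the other side AT2G47570 followed with at most 0.972 RPKM in Cm x L and 6.96, 4.71 and 9.91 RPKM in L x Cm, and then U1A, a spliceosomal protein, with 33.4, 25.7 and 19.7 RPKM and 39.5, 25.3 and 36.7 RPKM. Between FUM1 and U1A 6 adjacent loci were below 1 RPKM in every Cm x L library. For ERF71, AT2G47540, AT2G47550 and AT2G47560 the rule had fixed this. AT2G47530 and AT2G47570 were not chosen by it, and 27.1% of all placed loci were below that level.

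The other long run, also on chromosome 2, held AT2G10602, AT2G10608 and AT2G10611, all without a known product. They had 7.46, 5.81 and 5.34 RPKM, 14.3, 11.4 and 7.54 RPKM, and 17.5, 6.41 and 6.87 RPKM in L x Cm. The pseudogene AT2G10614 next to them had 0.1005, 0.125 and 0 RPKM in Cm x L and 13.5, 5.35 and 1.45 RPKM in L x Cm, and missed the rule through replicate 3. L x Cm replicate 1 was the highest of its cross in each of these 4 loci, as in 129 of the 166 members.

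A pair of adjacent pectin lyase-like genes on chromosome 3 stood beside relatives with another pattern. AT3G07830 had 0.187, 0.872 and 0.680 RPKM in Cm x L and 16.3, 11.5 and 10.1 RPKM in L x Cm, and AT3G07840 had 0.238, 0.687 and 0.627 RPKM and 17.6, 12.3 and 8.48 RPKM. Their pectin lyase-like neighbour AT3G07820 had 16.2, 134 and 19.6 RPKM in Cm x L and 80.3, 304 and 129 RPKM in L x Cm, and AT3G07850 on the other side had 3.96, 22.9 and 3.02 RPKM and 15.9, 77.0 and 37.9 RPKM. In the neighbours replicate 2 was the highest of both crosses. In the member pair replicate 2 was the highest in Cm x L too, whereas replicate 1 was the highest in L x Cm. The summed level of the pollen markers, given below, was also highest in replicate 2 of both crosses, while GCS1 and DUO1 among them were highest in L x Cm replicate 1.

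AT1G28455 lies on chromosome 1 among genes of the MADS-box family. AGL58, just before it, had 0.429, 0 and 4.04 RPKM in Cm x L and 12.9, 2.64 and 10.7 RPKM in L x Cm, and AGL59, just after it, had 0.498, 2.01 and 3.45 RPKM and 12.8, 11.2 and 9.62 RPKM. AGL59 thus did not overlap between the crosses but passed the limit of 1 RPKM in Cm x L replicates 2 and 3. GRX480, a glutaredoxin and a member a few loci on, had 8.82, 6.60 and 6.52 RPKM in L x Cm.

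The loci next to members were lower in Cm x L than placed loci in general, though not silent. The 316 flanking loci had a median mean of 2.83 RPKM in Cm x L and 7.45 RPKM in L x Cm, while all placed loci had 4.37 and 6.60 RPKM. Their median log2 difference, Cm x L minus L x Cm, was -0.92 against -0.27 for all placed loci. The share below 1 RPKM in every Cm x L library was 26.3% among them and 27.1% among all. This is a description of neighbours and was not tested.

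Marker lists show what else moved with the direction of the cross. Over the 26620 loci whose mean reached 1 RPKM, limma's moderated test with Benjamini-Hochberg adjustment called 4870 lower in Cm x L, or 18.3%, and 1792 higher, or 6.73%. The median log2 difference over all tested loci was -0.22. After quantile normalization the median was 0.04 and the calls were 1739 lower and 2070 higher, so the excess of lower calls depends on the scaling. At an unadjusted p under 0.05 stood 11050 of the tested loci, or 41.5%, the background for the counts in the lists below. The 166 members are part of these counts, and their own calls, which the rule had fixed, are not read as a result.

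Markers of the embryo, meristem and organ boundaries had the most calls. Of 15 genes, 7 were below 1 RPKM in every Cm x L library and none was in every L x Cm library. Of all 33602 loci, 9469 were below 1 RPKM in every Cm x L library and 3023 in every L x Cm library. CUC3, 1 of the 7, is a member, so the rule had fixed its place there and its limma call in the count below. Of the 14 tested, limma called 9 lower in Cm x L and 0 higher at an adjusted p of 0.05. After quantile normalization the calls were 4 lower and 1 higher. At an unadjusted p under 0.05 in limma stood 13, or 92.9%. That count takes both directions, with CUC1 and WOX8, described below, higher in Cm x L. The list's median log2 difference was -1.97, and -0.93 after quantile normalization. STM, which keeps the shoot meristem undifferentiated, had 0.778, 2.30 and 1.09 RPKM in Cm x L and 24.999, 14.03 and 12.4 RPKM in L x Cm, and limma's adjusted p was 0.00585. WOX9, a homeobox factor of the early embryo, had 2.22, 3.53 and 2.07 RPKM and 27.97, 16.7 and 14.9 RPKM, with a limma adjusted p of 0.00580. Both calls held in all 6 fits that left out 1 library. The list's count of 9 fell to 4 without Cm x L replicate 1 or L x Cm replicate 2 and to 5 without L x Cm replicate 1. Neither gene overlapped between the crosses, and both missed the rule by their level in Cm x L. WOX8, its relative of the zygote's basal cell line, ran against the list with 165, 117 and 66.2 RPKM in Cm x L and 28.3, 61.0 and 69.2 RPKM in L x Cm, and the crosses overlapped there. CUC1, a boundary factor related to CUC3, was also higher in Cm x L, with 3.86, 4.01 and 3.43 RPKM against 2.04, 1.32 and 1.21 RPKM, without overlap and with a limma adjusted p of 0.0582. Largely through WOX8 the summed level of the list, 78.0 to 178 RPKM in Cm x L and 133 to 160 RPKM in L x Cm, overlapped as well. The part of embryo RNA in the members' levels was not tested.

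Pollen markers varied most between libraries and overlapped between the crosses in sum. The 6 genes summed to 55.0 to 662 RPKM in Cm x L and 611 to 2316 RPKM in L x Cm, with the highest library being replicate 2 in each cross. In limma 2 of the 6, VGD1 and DUO1, were called lower in Cm x L and 0 higher, with 5, or 83.3%, at an unadjusted p under 0.05 and a median log2 difference of -2.50. DUO1, the factor that sets the male germ line, had 0.115, 1.57 and 0 RPKM in Cm x L and 9.74, 5.00 and 3.74 RPKM in L x Cm. Each of these calls held in 3 of the 6 fits that left out 1 library, and the count was 0 without replicate 1 of either cross or L x Cm replicate 2 and 5 without Cm x L replicate 2. In Cm x L the library with the highest pollen sum, replicate 2, was the one in which the most members, 116, were highest. In L x Cm the most members, 129, were highest in replicate 1, which had the lowest pollen sum, and 26 in replicate 2, which had the highest. The part of pollen RNA in the members' levels was not tested.

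Seed coat and endosperm markers showed other patterns. The 8 seed coat genes summed to 167 to 488 RPKM in Cm x L and 287 to 559 RPKM in L x Cm, and limma called 0 in either direction, with 2, below the share of all tested loci, at an unadjusted p under 0.05; without Cm x L replicate 3 it called 5 lower. Their median log2 difference was -0.54. The 8 endosperm genes summed to 457 to 459 RPKM in Cm x L and 498 to 558 RPKM in L x Cm. Of these limma called MINI3 and IKU2, both of the pathway that sets seed size, lower in Cm x L, and FIS2 and HDG3 higher, with 7, or 87.5%, at an unadjusted p under 0.05 and a median log2 difference of -0.49. MINI3 and HDG3 kept their calls in all 6 fits that left out 1 library, FIS2 in 2 and IKU2 in 1. No gene of the 4 lists was at 0 throughout either cross, so every library held RNA of endosperm markers, and every list of the other tissues was read in both crosses.

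The 3 loci that met the rule with the crosses exchanged had no known product or role. AT3G32377, a pseudogene, had 22.3, 18.8 and 17.4 RPKM in Cm x L and 0.686, 0 and 0.934 RPKM in L x Cm. AT5G45095 had 15.3, 13.0 and 6.22 RPKM and 0.306, 0.602 and 0.616 RPKM, and AT3G25014 had 5.28, 6.28 and 6.97 RPKM and 0.681, 0 and 0 RPKM.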

How the data were processed

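Nuclear poly(A) RNA of F1 endosperm was sequenced in 6 libraries. Per the submitters' processing notes reads were aligned with TopHat2 2.1.0 and the build was TAIR10; no source used here gives the counting tool, its rules or its strand setting. The deposited values are RPKM, scaled by the authors to locus length and library total, with no further correction between libraries, so low levels can shift with the make-up of a library. Columns were matched to samples by parent order and replicate number, and 0 were left over. The labels do not say whether replicates came from separate plants, so a p-value covers only the spread between these libraries, which may be technical.

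Read totals were recovered from the steps of low values in replicate order at 29.2, 23.6 and 22.2 M for the TEmob mother and at 27.2, 21.7 and 21.2 M for the Ler mother. Between 99.0% and 100% of the checked values were then whole reads within 0.02, and 1 read at 1 kb was worth 0.0342 to 0.0471 RPKM. The totals were fitted to make this share high. For most members the annotated length did not give whole reads, so read numbers are printed for tRNA loci only, and limits for values of 0 use a length that gives whole reads within 0.02 in the 3 L x Cm libraries. Classes, symbols, chromosomes and tRNA sequences came from the RefSeq annotation of TAIR10.1, which matched 32835 of 33602 loci and 164 of 166 members; its coordinates are not printed.

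The members and the gene lists were chosen with earlier results of these data known. Genes named are the 15 members with the highest mean in L x Cm, the 25 highest protein-coding members with a symbol, runs of 3 or more neighbours, the 3 highest of each class, the 3 nearest each limit on both sides, and members in marker lists; other genes named were chosen after their values were seen. Crosses were compared in limma 3.58.1 (R 4.3.3) on log2(RPKM + 1), with an intensity trend, for loci whose mean reached 1 RPKM, with direction as the only term, 2-sided, adjusted by Benjamini-Hochberg at 0.05, and the procedure was tested on simulated data. An exact test of 3 against 3 libraries cannot reach 0.05. Alternatives were other limits, pseudocounts, filters and scalings, a replicate term, and leaving out each library. The rest was done in Python 3.11.15 (numpy 2.4.6, pandas 2.3.3, matplotlib 3.10.9).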

Additional observations from a re-analysis of the deposited data

How the results depend on the processing

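The number of loci that met the rule depended on its limits and on the scaling. It was 569 with at least 3 RPKM in L x Cm, 13 with at least 10 RPKM, 40 with Cm x L below 0.5 RPKM, 407 below 2 RPKM and 21 after quantile normalization; it was 151 with size factors, of which 146 were shared. Leaving out 1 library gave 177 to 432 loci, with 379 without Cm x L replicate 2, 274 without L x Cm replicate 2 and 432 without L x Cm replicate 3. Leaving out a library can only add loci under limits of this form, in either direction, so all 166 members stayed by construction. With the crosses exchanged the rule took 1 locus at 10 RPKM, 0 below 0.5 RPKM, 5 below 2 RPKM and 12 after quantile normalization, and 3 to 8 when 1 library was left out, with 8 without Cm x L replicate 3 and 7 without L x Cm replicate 1. In limma the loci lower in Cm x L were 1322 at a mean of at least 5 RPKM and 1739 after quantile normalization. Leaving out 1 library gave 1243 to 5231 lower and 359 to 2280 higher: 1243 and 359 without Cm x L replicate 1, 876 higher without Cm x L replicate 2, 1856 and 787 without L x Cm replicate 1, and 1831 and 524 without L x Cm replicate 2. Embryo markers called lower were 3 at a mean of at least 5 RPKM, 4 after quantile normalization (with 1 higher) and 4 to 10 without 1 library (with 0 to 1 higher): 4 without Cm x L replicate 1, 5 without L x Cm replicate 1 and 4 without L x Cm replicate 2. Endosperm markers called lower were 1 with a pseudocount of 0.1, at a mean of at least 5 RPKM, after quantile normalization and with the replicate block, and 1 to 3 without 1 library; those higher were 1 after quantile normalization and 1 to 2 without 1 library. Pollen markers called lower were 1 at a mean of at least 5 RPKM and after quantile normalization, and 0 to 5 without 1 library: 0 without replicate 1 of either cross or L x Cm replicate 2, and 5 without Cm x L replicate 2. Seed coat markers called lower were 0 to 5 without 1 library, with 5 without Cm x L replicate 3. Same-numbered libraries deviated together only weakly (correlations of 0.0807, 0.146 and 0.204), so the numbers were not taken to pair the samples; with the replicate block 1963 loci were higher and 4887 lower, 3 seed coat and 5 pollen markers were called lower. The causes of these changes were not tested. Depth limits tRNA loci, where 3 reads exceed 1 RPKM.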
